A study of Mus musculus with 3 samples.

Results

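Claudins, occludin and the scaffold protein Tjp1 form tight junctions, and 10 mouse genes that encode them were examined here on every array probe the files assign to them by gene name: Cldn1, Cldn2, Cldn3, Cldn4, Cldn5, Cldn6, Cldn7, Cldn9, Ocln and Tjp1. These genes had 14 probes among the 39429 gene probes of the array, and 13 probes of 9 genes passed the filter for low signal. The samples were RNA of mouse embryoid bodies, the aggregates that embryonic stem cells form in suspension without LIF, taken at day 10. One group was a Dido3 mutant with the label Dido3deltaCT+HADido3CT, in which the Dido3 protein lacks its C-terminal part and that missing region, encoded by exon 16, is overexpressed. It is called mutant+CT below, and the other group was the wild type. Each of 3 Agilent 2-colour arrays carried 1 mutant+CT RNA and 1 wild-type RNA, labelled as biological replicates, with mutant+CT in Cy3 on replicates 1 and 3 and in Cy5 on replicate 2. No mutant without the added region is among these samples, so the truncation and the overexpression cannot be told apart. The sources used here do not name the stem cell line, the number of clones behind each group or the promoter that drives the added region.

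Tight junctions seal the gap between neighbouring epithelial or endothelial cells near their apical side. Claudins are small membrane proteins that bind each other across this gap, and the claudins a cell makes set which ions and molecules may pass: some close the gap and others form pores. Occludin joins the same strands, and Tjp1, also called ZO-1, ties the claudin tails inside the cell to actin. In embryoid bodies such junctions are known from the outer endoderm layer and from other polarized epithelia.

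Because Cldn2, Cldn6 and Cldn7 were the genes with a higher signal in mutant+CT on every array, the 250 bases before their transcription starts are shown, from RefSeq on GRCm38.p6. Capitals mark the E-box CAGGTG on either strand, the letters bound by Snai and Zeb repressors of epithelial genes. The Cldn2 stretch is chrX:139800558-139800807, the Cldn6 stretch chr17:23679115-23679364 and the Cldn7 stretch chr11:69965171-69965420, all on the plus strand.
Cldn2: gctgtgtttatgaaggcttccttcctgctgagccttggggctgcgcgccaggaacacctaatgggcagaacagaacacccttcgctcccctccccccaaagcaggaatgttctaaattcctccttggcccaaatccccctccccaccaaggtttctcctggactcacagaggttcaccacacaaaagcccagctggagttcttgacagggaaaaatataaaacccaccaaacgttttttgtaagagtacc
Cldn6: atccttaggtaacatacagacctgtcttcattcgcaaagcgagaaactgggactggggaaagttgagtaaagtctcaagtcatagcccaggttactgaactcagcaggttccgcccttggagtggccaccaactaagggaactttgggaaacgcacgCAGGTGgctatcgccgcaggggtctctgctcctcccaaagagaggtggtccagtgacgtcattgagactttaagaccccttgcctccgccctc
Cldn7: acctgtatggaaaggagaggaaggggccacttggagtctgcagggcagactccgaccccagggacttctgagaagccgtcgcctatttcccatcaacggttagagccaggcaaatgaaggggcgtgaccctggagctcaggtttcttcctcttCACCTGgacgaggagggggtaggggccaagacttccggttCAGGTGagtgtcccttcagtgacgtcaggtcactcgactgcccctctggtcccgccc
The table of promoters covered 9 of the 10 genes in 11 windows of 300 bases, 250 before and 50 after a start. CAGGTG was found in 6 of the 11 windows, of Cldn3, Cldn4, Cldn6, Cldn7 and Ocln, and in 20.2% of 32851 promoter windows of all genes. The 2 Ocln windows overlap and share 1 of these sites, and the difference between the shares was not tested. GC content was 52.33% in the Cldn6 window and 60.67% to 68% in the other windows with CAGGTG. It was 51.33% to 65.33% in the windows of these genes without it, and the median over all windows was 52.67%. The part of GC content in the shares was not tested. AACNGGTT, the letters bound by grainyhead-like factors, was found in 1 window, that of Cldn5, and in 2.09% of all windows. No window of these genes held both motifs. These matches describe letters and are not shown binding sites. The start that the Cldn7 stretch precedes lies 642 bases downstream of another annotated Cldn7 start, whose window held no CAGGTG. The stretch holds the whole 60-base sequence of the dimmer of the 2 Cldn7 probes, at bases -151 to -92 from the nearer start.

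Claudins are a family of related proteins, so the probes were compared with each other. Over the 87 pairs of probes from different genes the longest identical run was 8 bases. The probes of Cldn4 and Cldn9 that overlap in like stretches are shown with the equal bases in capitals, 19 of 28 aligned.
Cldn4: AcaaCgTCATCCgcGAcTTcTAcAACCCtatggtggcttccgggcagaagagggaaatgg
Cldn9: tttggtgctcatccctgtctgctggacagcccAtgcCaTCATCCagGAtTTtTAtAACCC
The Cldn4 probe lies at chr5:135422135-135422194 and the Cldn9 probe at chr17:23820168-23820227, both on the minus strand of mm9, the build of the array's own coordinates.

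Between 68.1% and 78.5% of spots were well above background in a channel, and no spot was saturated. Across genes, the array ratios (log2, mutant+CT over wild type) correlated between arrays with Pearson's r of 0.18 for replicates 1 and 2, 0.54 for 1 and 3, and 0.38 for 2 and 3, and genes are not independent replicates. Replicate 2 was alone in its dye orientation, so dye and replicate cannot be told apart there. The 4 probes of Dido1, the gene that encodes Dido3, had mean log2 ratios of -2.39, 0.77, 1.79 and 3.53, and the exon each reads is not given in the sources used here, so the labels could not be checked with them. A difference in bulk RNA cannot tell a change in the share of cells of a type from a change in RNA per cell. The 3 arrays limit the precision of all values, and p-values measure the spread between them.

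None of the 13 probes passed an adjusted p of 0.05 in limma with Benjamini-Hochberg adjustment over all 26318 probes, and 115 of all probes, or 0.437%, did. At an unadjusted p under 0.05 the brightest probes of Cldn2 and Cldn7 passed, both higher in mutant+CT, and 16.5% of all probes did. By genes, 8.99% of all passed so with a higher and 6.7% with a lower signal in mutant+CT. By the brightest probe of each gene, Cldn2, Cldn6 and Cldn7 were higher in mutant+CT on every array, which is 3 of 9 or 33.3%, against 20.3% of all 20248 genes. None of the 9 was lower on every array, against 17.4% of all genes, and the other 6 had ratios of both signs. None was at least 2-fold apart in the same direction on every array, against 2.87% of all genes. The median log2 ratio of the 9 genes was 0.57, at 0.39, 0.72 and 0.21 on replicates 1, 2 and 3, and that of all genes was -0.003. Without replicate 2 the median of the 9 genes was 0.34. For none of them did the levels of the groups separate, whereas 9.44% of all genes had every mutant+CT level above every wild-type level and 6.54% had every one below.

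**Figure D1:**
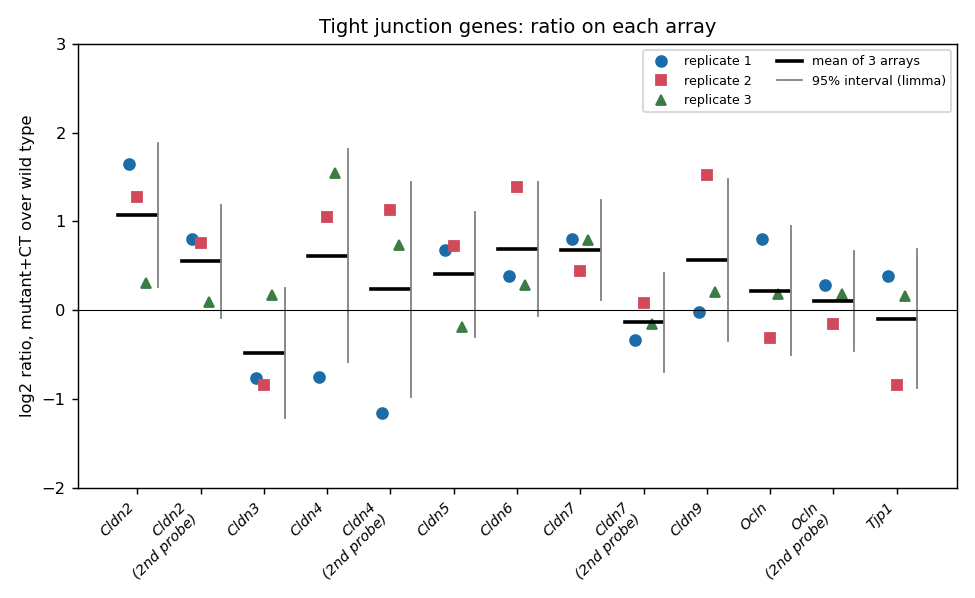
Log2 ratio (mutant+CT over wild type) of the 13 probes kept, with 1 point per array, a bar for the mean and a thin line for limma's 95% interval. The points of Cldn2, Cldn6 and the bright Cldn7 probe lie above 0 on all 3 arrays, and those of Cldn4 lie on both sides of 0.

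Cldn2, a claudin that forms pores for cations and water, had the largest mean ratio among these genes over the 3 arrays, but without replicate 1 its mean of 0.79 was below those of Cldn4, Cldn6 and Cldn9. Its brighter probe, at chrX:136345244-136345303 of mm9, had normalized log2 intensities of 10.03, 11.18 and 7.38 in mutant+CT replicates 1, 2 and 3, against 8.38, 9.90 and 7.07 in wild type. Each mutant+CT sample was above the wild type of its own array, yet replicate 3 was low in both groups and the groups overlapped. The log2 ratios were 1.65, 1.27 and 0.31, a mean of 1.08 ± 0.69 (SD, n = 3 arrays), or 2.11-fold with a 95% interval of 1.20 to 3.70 and an adjusted p of 0.20 in limma. Within a group the levels spanned 3.80 in mutant+CT and 2.83 in wild type, more than this difference. The dimmer Cldn2 probe gave 0.81, 0.76 and 0.09, a mean of 0.55 ± 0.40 (SD, n = 3) and an adjusted p of 0.36 in limma, in the same order over the arrays.

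Cldn6, a claudin of early embryonic epithelia, and Cldn9, its close relative, are neighbours on chromosome 17. Cldn6, read at chr17:23819027-23819086 of mm9, had log2 intensities of 13.69, 14.26 and 12.42 in mutant+CT, against 13.31, 12.87 and 12.13 in wild type. The ratios were 0.38, 1.38 and 0.29, with a mean of 0.69 ± 0.61 (SD, n = 3) and an adjusted p of 0.34 in limma. The largest of them came from replicate 2, and without that array the mean was 0.34. Cldn9 had log2 intensities of 10.72, 12.41 and 10.93 in mutant+CT, against 10.75, 10.88 and 10.73 in wild type. Wild type varied by 0.16 between replicates, and mutant+CT stood clear of it by over 1 log2 unit on replicate 2 alone. Its ratios of -0.02, 1.53 and 0.21 averaged 0.57 ± 0.84 (SD, n = 3) with an adjusted p of 0.51 in limma, and without replicate 2 the mean was 0.09. In a limma fit with a dye term, the unadjusted p of that term was 0.0235 for Cldn9, 0.0511 for Cldn6 and 0.0484 for Tjp1. For the other members measured it was 0.16 to 0.70, and none passed adjustment. Over all 26318 probes, 3003 passed unadjusted for that term and none passed adjustment. The part of dye in the ratios of Cldn6, Cldn9 and Tjp1 cannot be told apart from replicate 2.

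Cldn7, a claudin found along the basolateral side as well as in the junction and known to bind Epcam, varied least among arrays by its bright probe at chr11:69781255-69781314 of mm9. It had log2 intensities of 13.59, 14.15 and 13.44 in mutant+CT, against 12.79, 13.71 and 12.65 in wild type. Each mutant+CT sample was above the wild type of its own array, and replicates 1 and 3 of mutant+CT lay below wild type replicate 2. The ratios of 0.80, 0.44 and 0.79 averaged 0.68 ± 0.20 (SD, n = 3), or 1.60-fold with a 95% interval of 1.09 to 2.36 and an adjusted p of 0.23 in limma. The dimmer probe, at chr11:69778772-69778831 of mm9, whose sequence is the one inside the promoter stretch shown above, did not follow it. That probe had ratios of -0.33, 0.08 and -0.16, a mean of -0.14 ± 0.21 (SD, n = 3) and an adjusted p of 0.84 in limma, and in wild type it was well above background on 2 of 3 arrays. The 2 probes differed by up to 1.13 in log2 ratio on 1 array.

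Cldn3 and Cldn4, neighbours on chromosome 5 and both receptors for a clostridial enterotoxin, had ratios of the same sign on replicates 1 and 3 and of opposite sign on replicate 2. Cldn3, read at chr5:135463284-135463342 of mm9, had log2 intensities of 11.07, 11.50 and 11.60 in mutant+CT, against 11.84, 12.35 and 11.43 in wild type. Mutant+CT was below wild type on replicates 1 and 2 and above it on replicate 3. The ratios of -0.77, -0.85 and 0.17 averaged -0.48 ± 0.57 (SD, n = 3) with an adjusted p of 0.49 in limma, and the mean was -0.30 without replicate 2 and -0.81 without replicate 3. Cldn4, by its brighter probe at chr5:135421347-135421406 of mm9, had 9.31, 10.84 and 10.38 in mutant+CT, against 10.06, 9.79 and 8.83 in wild type. It was lower in mutant+CT on replicate 1 and higher on the other arrays, with ratios of -0.75, 1.05 and 1.55, the widest spread of these genes. The mean was 0.62 ± 1.21 (SD, n = 3) and the adjusted p 0.60 in limma. Its other probe gave -1.16, 1.13 and 0.74, with the same sign on each array.

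Cldn5 is the main claudin of endothelium and also occurs in other tissues. Read at chr16:18778046-18778105 of mm9, it had log2 intensities of 9.94, 8.85 and 9.21 in mutant+CT, against 9.26, 8.13 and 9.40 in wild type. Replicates 1 and 2 were higher in mutant+CT and replicate 3 was slightly lower. The ratios of 0.68, 0.72 and -0.19 averaged 0.40 ± 0.52 (SD, n = 3) with an adjusted p of 0.55 in limma, and the mean ranged from 0.24 without replicate 2 to 0.70 without replicate 3. Of 10 endothelial markers measured beside it, 3 were higher and 1 was lower on every array, against 20.3% and 17.4% of all genes. Their median ratio was 1.24, -1.05 and -0.92 on replicates 1, 2 and 3. The mean log2 level of those markers ranged from 8.20 to 10.17 in mutant+CT and from 8.80 to 8.85 in wild type, and their part in the Cldn5 values was not tested. Cldn1, the claudin of the skin barrier, was not well above background in any channel. Its mean signals were 84.8, 54.2 and 85.1 in mutant+CT over local backgrounds of 40.5, 40 and 51, against 47.2, 91.2 and 59.8 in wild type over 42, 45.5 and 35, so no level and no ratio is given.

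Ocln, read by its brighter probe at chr13:101268529-101268588 of mm9, had log2 intensities of 10.80, 11.56 and 10.54 in mutant+CT, against 10.00, 11.88 and 10.36 in wild type. Replicate 2 was the highest in both groups. The ratios of 0.80, -0.32 and 0.18 averaged 0.22 ± 0.56 (SD, n = 3) with an adjusted p of 0.79 in limma, and the mean was -0.069 without replicate 1. Its other probe gave 0.28, -0.15 and 0.18, with the same signs. Tjp1, read at chr7:72441126-72441185 of mm9, had 13.17, 12.39 and 12.54 in mutant+CT, against 12.78, 13.23 and 12.39 in wild type. The ratios of 0.39, -0.84 and 0.16 averaged -0.10 ± 0.65 (SD, n = 3) with an adjusted p of 0.92 in limma, and the mean was 0.27 without replicate 2. So neither gene had a direction that 3 arrays shared, and the 95% intervals of their mean ratios, -0.51 to 0.95 for Ocln and -0.88 to 0.69 for Tjp1, allow changes in either direction.

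**Figure D2:**
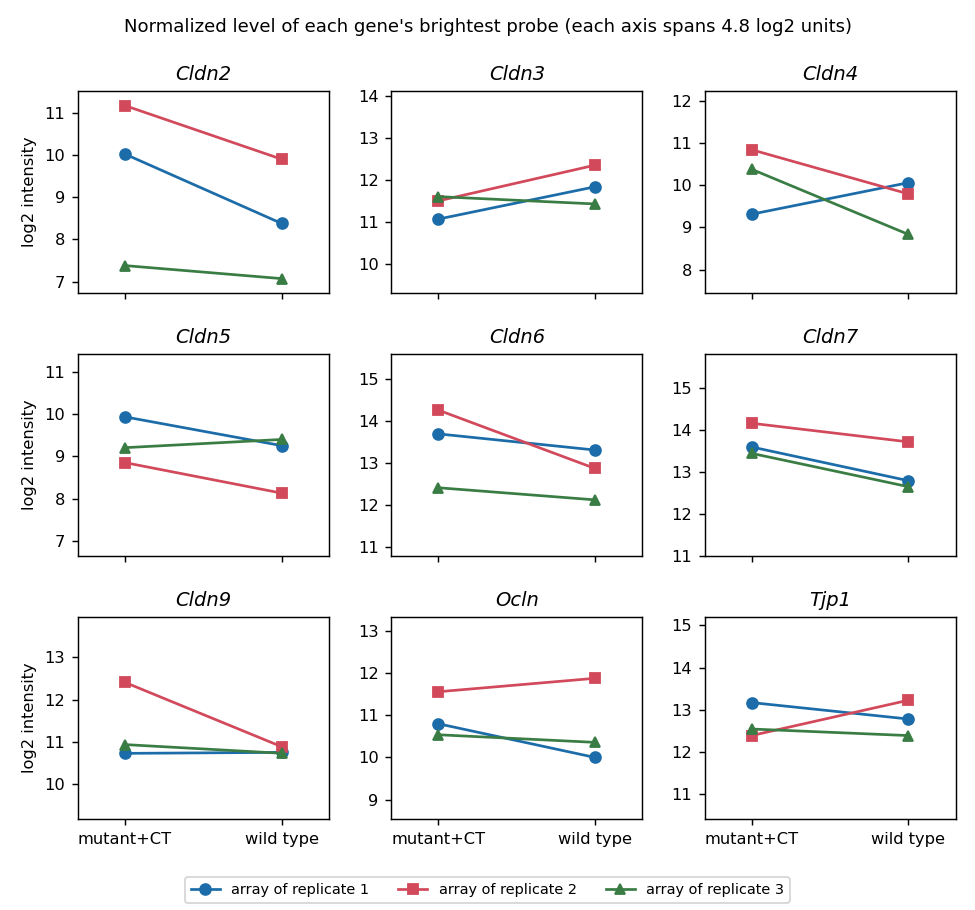
Normalized log2 intensity of the brightest probe of each of 9 genes, mutant+CT on the left and wild type on the right, with a line joining the samples of 1 array. Replicate 3 is lowest in both groups for Cldn2, and replicate 2 of mutant+CT is alone above the other samples for Cldn9.

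Leaving out 1 array moved single values more than any other change of processing did for each gene except Cldn7. Cldn2 ranged from 0.79 without replicate 1 to 1.46 without replicate 3, and Cldn4 from 0.15 without replicate 3 to 1.30 without replicate 1. Without replicate 3, Cldn2 alone of these genes was at least 2-fold higher on both arrays left, and without replicate 1 the same held for Cldn4. With all kept probes of a gene averaged, the Cldn7 ratio was 0.27. That average takes in the dimmer Cldn7 probe, with a mean log2 intensity of 6.56 against 13.38 for the bright probe.

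**Figure D3:**
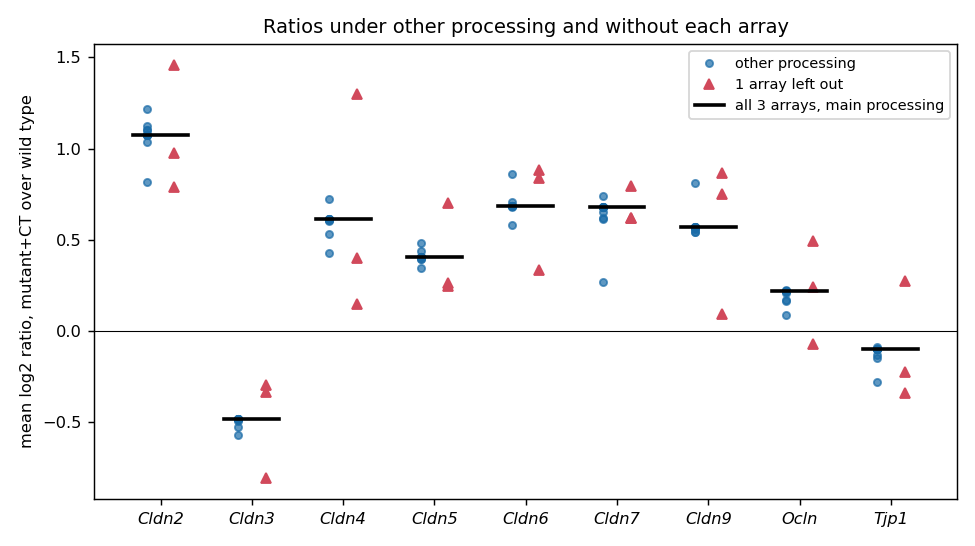
Mean log2 ratio of mutant+CT over wild type for each gene, as a bar for the main processing, dots for other processing and triangles for 1 array left out. Ocln crosses 0 without replicate 1 and Tjp1 crosses 0 without replicate 2.

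The other genes of the junction were taken from lists of partner proteins and regulators, and none of them passed an adjusted p of 0.05 in the limma fit over the brightest probe of each gene, nor did any of the 20248 genes, while 15.7% of genes passed unadjusted. Of 23 genes listed as other claudins 8 were measured, with a median log2 ratio of -0.18. Of these, 1 was higher and 3 were lower on every array, and 1 and 2 passed an unadjusted p of 0.05 in limma in those directions. The 8 include Cldnd1 and Cldnd2, which are not numbered claudins, with mean ratios of 0.53 and -0.11. They also include Tmem114, which was listed as Cldn26, with a mean ratio of -0.05. The gene of this list with the smallest p was Cldn15, a pore-forming claudin of the gut, at 1.30, 0.62 and 1.32, a mean of 1.08 ± 0.40 (SD, n = 3). Of 17 other membrane proteins of the junction 16 were measured, with a median of -0.20, 2 higher and 6 lower on every array, and 4 passed unadjusted, all lower. Cxadr, the coxsackie and adenovirus receptor, had log2 intensities of 11.68, 12.40 and 11.77 in mutant+CT, against 12.93, 13.41 and 13.24 in wild type. Its groups did not overlap, and its ratio averaged -1.24 ± 0.23 (SD, n = 3) with an adjusted p of 0.11 in limma, but a dimmer Cxadr probe averaged 0.03. Of 21 scaffolds and adaptors 19 were measured, with a median of 0.07, 3 higher and 4 lower on every array and 2 passing unadjusted, both lower. Mpdz, a PDZ scaffold, averaged -1.44 ± 1.01 (SD, n = 3). Leaving out 1 array moved the median of the other membrane proteins to 0.03 without replicate 3, that of the scaffolds to -0.08 without replicate 2 and to 0.17 without replicate 3, and that of the other claudins to -0.29 without replicate 2.

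The polarity complexes place the junction along the cell's side, and of their 16 listed genes 14 were measured, with a median of 0.14. Of these, 7 were higher and none lower on every array, against 20.3% and 17.4% of all genes. Unadjusted, 3 passed, all higher, against 8.99% of all genes. Mpp5, known as Pals1, which links the Crumbs complex to the junction, had 10.92, 10.79 and 10.68 in mutant+CT, against 8.61, 8.97 and 8.37 in wild type. The groups did not overlap, and the mean ratio was 2.14 ± 0.29 (SD, n = 3). Its adjusted p in limma was 0.073 over genes and 0.0493 over probes, and 0.0504 over probes where 2 arrays with a value sufficed. No probe on the array passed without replicate 2, without replicate 3 or with a dye term in the fit. Mpp7, a related scaffold, had 9.45, 10.09 and 9.82 in mutant+CT, against 7.59, 7.37 and 7.60 in wild type, a mean ratio of 2.27 ± 0.43 (SD, n = 3) with an adjusted p of 0.076 over genes in limma. A dimmer Mpp7 probe averaged 0.78. Of 21 genes of adherens junctions and desmosomes 19 were measured, 7 higher and 4 lower on every array, with a median of 0.24, or 0.44 without replicate 2, and 3 in each direction passed unadjusted. Cdh3, P-cadherin, averaged 1.21 ± 0.51 (SD, n = 3), and Cdh2, N-cadherin of neural and mesodermal cells, averaged -2.49 ± 1.97 (SD, n = 3), with a second probe at -0.02, -1.28 and -3.35.

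Regulators of epithelial genes were read in the same way, beside 20.3% of all genes higher and 17.4% lower on every array. At an unadjusted p under 0.05 in limma, 8.99% of all genes passed as higher and 6.7% as lower. Of 18 epithelial transcription and splicing factors, all measured, 7 were higher and 2 lower on every array, with a median of 0.45, and 6 passed unadjusted as higher and 2 as lower. Grhl3, a grainyhead-like factor of surface epithelium, had 10.72, 11.36 and 11.91 in mutant+CT, against 9.44, 10.23 and 9.71 in wild type, a mean ratio of 1.54 ± 0.58 (SD, n = 3) and an adjusted p of 0.12 over genes in limma. Of 9 repressors of epithelial genes 8 were measured, 1 higher and 1 lower on every array, with a median of -0.40, and 1 passed unadjusted, Snai1. The median of this list was 1.29 on replicate 1, -1.23 on replicate 2 and -1.16 on replicate 3, and over the arrays left it was 0.20 without replicate 2 and -1.20 without replicate 1, so the list had no shared direction. Snai1, a repressor of E-cadherin and claudins, had 10.04, 10.59 and 9.97 in mutant+CT, against 11.44, 12.68 and 10.98 in wild type, a mean ratio of -1.50 ± 0.55 (SD, n = 3) and an adjusted p of 0.12 over genes in limma. The brightest probe of Zeb2, another repressor, had an outlier spot on replicate 1 and was left out, and gave -2.59 and -2.86 on replicates 2 and 3. The Zeb2 probe kept in its place gave 1.17, -0.84 and -1.47, and Zeb2 is named after its values were seen.

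**Figure D4:**
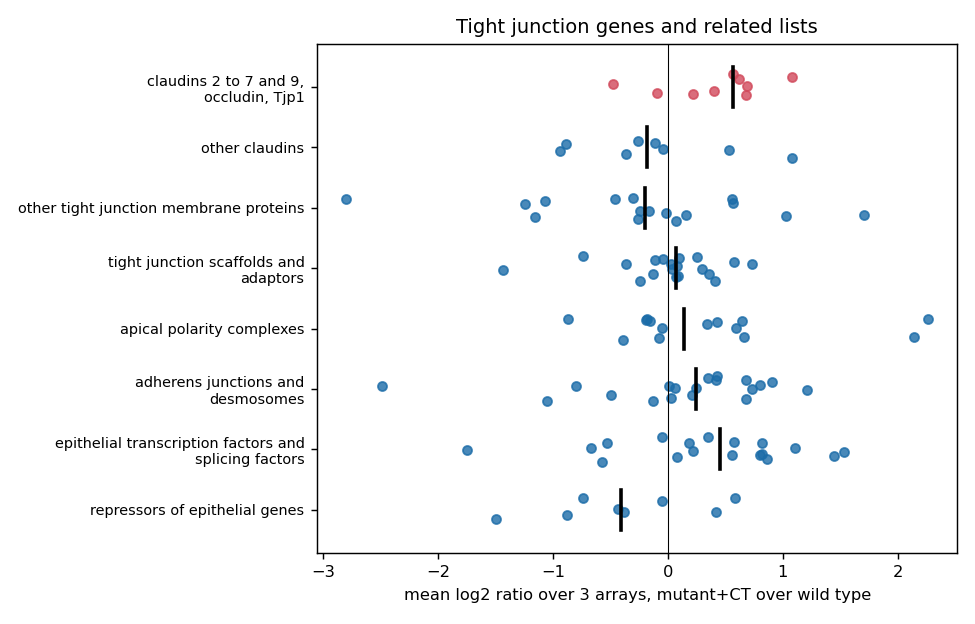
Mean log2 ratio of mutant+CT over wild type for every measured gene of each list, with a bar for the list's median. The 9 claudin, occludin and Tjp1 genes have a median of 0.57, or 0.34 without replicate 2. The list of other claudins, which also holds Cldnd1 and Cldnd2, has a median of -0.18.

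Markers of cell types that use tight junctions were read beside these genes. Of 10 simple epithelium markers, all measured, 7 were higher and none lower on every array, with medians of 0.52, 0.80 and 0.78, and their mean log2 level was 12.88 to 13.58 in mutant+CT and 12.05 to 12.86 in wild type. Of 10 visceral endoderm and yolk sac markers 9 were higher on every array, with medians of 2.05, 1.17 and 0.83, and their mean log2 level was 13.26 to 14.72 in mutant+CT and 11.77 to 13.54 in wild type. Of 8 trophoblast markers measured 3 were higher on every array, with a mean log2 level of 10.08 to 10.57 in mutant+CT and 9.34 to 10.00 in wild type. All markers of these lists that were measured were above background in both groups on every array. The marker lists share Cdh1, Epcam, Esrp1, Hnf4a, Elf5, Tfap2c, Esam and Twist1 with the junction and regulator lists above, and Krt7 counts in both the trophoblast and the epithelium markers. Away from these, 8 of 10 naive pluripotency markers were higher on every array, 7 of 8 parietal endoderm and 5 of 8 neural progenitor markers were lower, and mesenchyme markers had medians of 2.61, -1.86 and -1.15 on replicates 1, 2 and 3. The part of any of these markers in the claudin values was not tested.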

How the data were processed

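The files were the authors' scanner output of 3 arrays with 43020 gene spots, with signal intensity per channel; per the file headers the software was Agilent Feature Extraction, version 10.7.3.1. The authors' files also hold log10 ratios of red over green from that software, which were not used for results. A deposited table of log2 ratios was set against the arrays. It runs mutant+CT over wild type and correlated at r 0.994, 0.996 and 0.998 and had column medians of -0.02, 0.01 and -0.01. Its centring is not stated, and the submitters' processing notes name limma. Intensities were corrected with normexp (offset 50) and normalized by loess with limma 3.58.1 in R 4.3.3, control spots at weight 0. Outlier spots were left out, spots of a probe averaged, and 26318 probes kept that had a value on all 3 arrays and were well above background on all arrays in either group. Levels are log2 intensities after Aquantile normalization. Ratios were tested against 0 in limma with Benjamini-Hochberg adjustment, per probe and for the brightest probe of each of 20248 genes. RefSeq accessions matched 27234 probes, and other names were updated through synonyms.

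The named genes are all members, and of each junction, polarity and regulator list the gene with the smallest p and those at least 2-fold apart on every array. Marker lists are given as counts and levels. Genes named outside this rule show list overlaps, genes listed with the claudins whose symbol is not that of a numbered claudin or, for Zeb2, a probe left out. Genes and lists were chosen with earlier results of these data known. The rule that a probe has a value on all 3 arrays was set after results under a rule of 2 had been seen. The fit was also run on simulated ratios with known changes, and its recovery of them is not reported here. Alternatives covered background, normalization, filters, dye, variance prior, model and leaving out each array; all arrays shared a slide and a scan. Protein sequences were not analysed here, and no promoter of Cldn9 was used here.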

Additional observations from a re-analysis of the deposited data

How the results depend on the processing

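No probe of Cldn1 to Cldn7, Cldn9, Ocln or Tjp1 passed an adjusted p of 0.05 in limma under the alternatives run. Each member measured kept its direction in the settings that could move its ratio, except Ocln and Tjp1. Other filters, Aquantile and the separate-channel fit leave the ratio the same by construction. Ocln ranged from -0.069 to 0.49 when 1 array was left out (below 0 without replicate 1), and Tjp1 from -0.34 to 0.27 (above 0 without replicate 2). The count of all probes called, 115, depended on the processing: 16 without background subtraction, 739 with Agilent's processed signals, 40 with median centring, 0 without the filter on dim probes, 0 with a dye term, 469 with a trended and robust prior, 673 at an adjusted p under 0.1, 776 in a separate-channel fit, and 0 to 125 when 1 array was left out. It was 36 when values on at least 2 arrays sufficed, an alternative added after seeing the data. Of the junction, polarity and regulator genes, 0 were called, against 2 with processed signals, 2 with the trended prior, 2 at an adjusted p under 0.1, 4 in the separate-channel fit and 0 to 3 with 1 array left out. The count of members at least 2-fold apart on every array, 0, was 0 to 1 with 1 array left out. The cause was not tested. Each ratio already pairs the samples of an array, so no further block was fitted. Depth is not given by intensities, and dim probes such as those of Cldn1 limit what can be read.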
